A study of Mus musculus with 7 samples.

Results

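The proteasome genes of mouse liver were taken by symbol, as every gene on the array whose symbol begins with Psma, Psmb, Psmc, Psmd, Psme or Psmf followed by a digit. The rule found 44 genes on 48 probes, out of 16468 named genes and 22218 features (named genes and probes without a single symbol) in all. Of these, 42 encode subunits or dedicated factors of the proteasome. The other 2, Psmc3ip and Psme3ip1, match by spelling alone and are described apart. The 42 were 12 genes of the core, 9 of the base, 8 of the lid, 5 of the immunoproteasome (Psmb8, Psmb9, Psmb10, Psme1 and Psme2) and 8 others. Psma3 and Psmb3 were not analysed here.

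The proteasome is the barrel-shaped protease that degrades proteins marked with ubiquitin. Its core is built of alpha rings, which gate the barrel, and beta rings, which hold the catalytic sites of Psmb5, Psmb6 and Psmb7. The regulatory cap consists of a base, whose ATPases unfold the substrate, and a lid, which removes the ubiquitin chain. In cells exposed to interferon, and constitutively in many immune cells, Psmb8, Psmb9 and Psmb10 take the places of the constitutive catalytic subunits, and Psme1 and Psme2 form an alternative cap, which changes the peptides made for display on MHC class I. In liver the constitutive proteasome of hepatocytes predominates, and macrophages and lymphocytes carry more of the inducible form.

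Liver RNA of 7 mice was hybridised to 2-colour arrays to ask which transcripts differ in mice with a transgene of Zfp90, a zinc finger protein. The wild-type group held 4 littermate controls (1 female and 3 males) and the transgenic group 3 animals (1 female and 2 males), each animal being 1 replicate. All were set against 1 shared liver RNA pool, made from 4 wild-type males and females, so all values are log2 ratios to that pool and give no level of a gene. The promoter and structure of the transgene, the strain and the ages are not given in the sources used here.

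Zfp90 itself was at 0.34 in the transgenic female and at 0.58 and 0.45 in the transgenic males. It read -0.15, -0.29 and -0.11 in the wild-type males, but 0.37 on the female array labelled wild type. The males were separate and that female array was not. Genotype differences are therefore given over all 7 arrays, in a model with genotype and sex, and for some genes also in the males alone. With the sex term, leaving out either female gives exactly the male contrast. The fitted Zfp90 difference was 0.48 ± 0.15 (SE) over all arrays, with an adjusted p of 0.678, and 0.69 ± 0.11 (SE) in males, with an adjusted p of 0.206. Adjusted p-values throughout are from limma with Benjamini-Hochberg adjustment over all 22218 features, and a gene was called at an adjusted p under 0.05. Arrays have no read depth, and precision is limited by there being 7 of them.

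When transgenic livers were compared with wild-type ones, the 5 immunoproteasome genes all had positive fitted differences, while genes of the core, base and lid lay on both sides of 0. The median difference was 0.52 over the immunoproteasome, 0.036 over the core, -0.053 over the base and -0.14 over the lid, against -0.0054 over all features. No proteasome gene passed the threshold, and neither did any other feature (0% of the 22218 tested). At an unadjusted p under 0.05, 5 of the 42 genes were higher in transgenic animals, against 3.82% of all features, and 1 of 42 was lower, against 3.1%. The 5 were Psmb9, Psmb10, Psme1, Psme2 and the core subunit Psmb5, and the 1 was the activator Psme4. The smallest adjusted p among the 42 was 0.653, shared by Psmb9 and Psme2.

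Psmb9, the inducible subunit of the caspase-like site, had the largest difference of the 42 genes. It read 0.78 in the transgenic female and 0.88 and 0.63 in the transgenic males. Wild-type males lay at -0.65, -0.69 and -0.43, with 0.75 on the female array labelled wild type. The 3 transgenic animals and that female formed a high set well above the wild-type males, so the genotypes overlapped over 7 animals and not over the 5 males. Transgenic animals averaged 0.76 ± 0.12 (SD, n = 3), and wild-type animals -0.25 ± 0.68 (SD, n = 4). The fitted difference was 0.96 ± 0.25 (SE), 1.94-fold, with an adjusted p of 0.653 (limma).

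Psmb8, the inducible subunit of the chymotrypsin-like site, read 0.36 in the transgenic female and 0.59 and 0.66 in the transgenic males. Wild-type males lay at -0.81, -0.91 and -0.42, and the female array labelled wild type read 0.97, the highest of the 7. The wild-type animals therefore spanned the transgenic ones, with means of 0.54 ± 0.16 (SD, n = 3) and -0.29 ± 0.87 (SD, n = 4). The difference of 0.77 ± 0.35 (SE), 1.70-fold, had an adjusted p of 0.731 (limma).

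Psmb10, the inducible subunit of the trypsin-like site, repeated this order with a smaller range. Its ratios were 0.58 in the transgenic female, 0.65 and 0.17 in the transgenic males, -0.28, -0.40 and -0.32 in the wild-type males and 0.61 on the female array labelled wild type. Transgenic male 2 was the lowest of the high set, yet still above every wild-type male. The difference of 0.52 ± 0.18 (SE), 1.43-fold, had an adjusted p of 0.718 (limma), and was 0.29 without transgenic male 1.

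The subunits of the interferon-inducible cap were both higher in each transgenic male than in any wild-type male. Psme1 was tightly grouped, at 0.26 in the transgenic female and 0.24 and 0.29 in the males of that genotype, against -0.13, -0.18 and -0.20 in wild-type males and 0.26 on the female array labelled wild type. Its difference was 0.31 ± 0.11 (SE), 1.24-fold, with an adjusted p of 0.718 (limma). Psme2 read 0.38 in the transgenic female and 0.65 and 0.38 in the males of that genotype, against 0.0007, -0.18 and -0.044 in wild-type males and 0.21 on the female array labelled wild type. It was the only gene of these 5 in which all 3 transgenic animals ranked above all 4 wild-type ones, and its pair of probes gave like differences between the group means (0.49 and 0.45). The fitted difference was 0.46 ± 0.12 (SE), 1.38-fold, with an adjusted p of 0.653 (limma).

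Among the 42 genes, all 3 transgenic animals ranked above all 4 wild-type ones in 2 (Psme2 and Psmb5), against 3.17% of all features, and below them in 1 (Psme4), against 2.84%. Leaving out 1 animal at a time moved the median of the immunoproteasome genes between 0.34 (without transgenic male 1) and 0.75 (without either female).

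**Figure D1:**
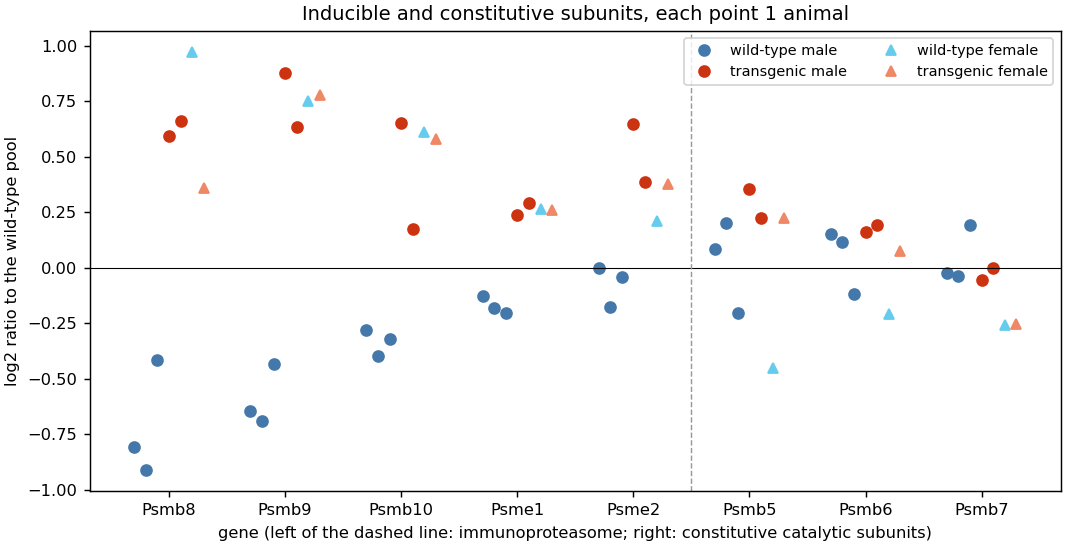
Log2 ratio to the wild-type pool (vertical axis) of the 5 immunoproteasome genes and the 3 constitutive catalytic subunits (horizontal axis), each point 1 animal; circles are males, triangles females, reds transgenic and blues wild type. For Psmb9 the wild-type males sit between -0.69 and -0.43, while the other 4 animals, the female array labelled wild type included, sit between 0.63 and 0.88.

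In the males alone, where both Zfp90 and the labels separate the genotypes, each of these 5 genes had a larger difference than over all 7 arrays. Psmb9 was at 0.76 in transgenic males (mean, n = 2) and -0.59 ± 0.14 (SD, n = 3) in wild-type males, a difference of 1.35 ± 0.13 (SE), 2.54-fold, with an adjusted p of 0.0732 (limma). Psmb8 was at 0.63 against -0.71 ± 0.26 (SD, n = 3), a difference of 1.34 ± 0.17 (SE), 2.53-fold, with an adjusted p of 0.105. Both values lay outside the spread of the wild-type males but missed the threshold.

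Psmb10 differed by 0.75 ± 0.16 (SE), 1.68-fold, with an adjusted p of 0.335 (limma). For Psme2 the male difference was 0.59 ± 0.13 (SE), with an adjusted p of 0.341. That of Psme1 was 0.44 ± 0.099 (SE), 1.35-fold, with an adjusted p of 0.363. None of the 42 genes was called in males, where 0.0315% of all features were. At an unadjusted p under 0.05, 5 of 42 were higher, all 5 of them the immunoproteasome genes, against 3.92% of all features, and 0 of 42 were lower, against 3.04%.

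Both transgenic males lay above all 3 wild-type males in 7 of the 42 genes (the immunoproteasome genes, Psmb5 and Psmb6), against 11.2% of all features, and below them in 1 (Psme4), against 11.4%. The male median was 0.75 over the immunoproteasome, 0.015 over the core, -0.036 over the base and -0.074 over the lid, against -0.018 over all features. Psmb8 and Psmb9 were called when wild-type male 4 was left out (the lower adjusted p was 0.0143, for Psmb8), where 55 of the 22218 features were called. No proteasome gene was called when any other male was left out.

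The promoters of the 5 immunoproteasome genes are shown with that of Psmb5, the constitutive partner of Psmb8, because interferon-responsive and stress-responsive elements are often found in such stretches. Each is the stretch of 250 bases before the annotated start, 5′ to 3′ on the gene's strand, from RefSeq on build GRCm38.p6. That of Psmb9 is 225 bases long, since the 25 bases furthest from its start lie in the neighbouring gene Tap1. Capitals mark matches on either strand to the letters searched.
Psmb8, chr17:34197945-34198194, plus strand: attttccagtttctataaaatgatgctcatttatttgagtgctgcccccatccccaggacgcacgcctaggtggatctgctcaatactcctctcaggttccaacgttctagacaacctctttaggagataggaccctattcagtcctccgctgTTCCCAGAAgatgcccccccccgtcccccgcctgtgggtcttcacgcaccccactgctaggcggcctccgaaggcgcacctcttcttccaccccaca
Psmb9, chr17:34187331-34187555, minus strand: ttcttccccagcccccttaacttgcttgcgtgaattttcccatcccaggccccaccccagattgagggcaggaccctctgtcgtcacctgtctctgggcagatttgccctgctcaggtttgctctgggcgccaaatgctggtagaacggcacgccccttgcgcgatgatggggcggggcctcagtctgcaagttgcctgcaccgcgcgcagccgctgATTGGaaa
Psmb10, chr8:105938393-105938642, minus strand: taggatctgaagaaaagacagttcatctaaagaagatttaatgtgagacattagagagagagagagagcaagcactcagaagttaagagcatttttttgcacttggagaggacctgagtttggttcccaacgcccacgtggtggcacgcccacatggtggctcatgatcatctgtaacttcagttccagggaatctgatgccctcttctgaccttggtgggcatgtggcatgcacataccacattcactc
Psme1, chr14:55578244-55578493, plus strand: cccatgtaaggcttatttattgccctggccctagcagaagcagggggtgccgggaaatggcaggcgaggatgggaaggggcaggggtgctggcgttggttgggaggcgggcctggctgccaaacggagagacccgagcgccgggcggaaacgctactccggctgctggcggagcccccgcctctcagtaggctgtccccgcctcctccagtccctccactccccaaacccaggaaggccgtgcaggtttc
Psme2, chr14:55591102-55591351, minus strand: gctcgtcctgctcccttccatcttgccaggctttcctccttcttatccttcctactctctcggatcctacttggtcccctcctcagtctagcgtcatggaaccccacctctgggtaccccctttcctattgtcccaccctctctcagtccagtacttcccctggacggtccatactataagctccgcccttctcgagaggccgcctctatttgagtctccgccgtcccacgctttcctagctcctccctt
Psmb5, chr14:54617996-54618245, minus strand: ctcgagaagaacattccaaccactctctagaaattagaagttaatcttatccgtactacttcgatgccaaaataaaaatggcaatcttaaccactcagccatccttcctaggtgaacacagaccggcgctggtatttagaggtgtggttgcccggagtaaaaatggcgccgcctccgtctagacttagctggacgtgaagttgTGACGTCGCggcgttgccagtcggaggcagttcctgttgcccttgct

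The Psmb8 stretch holds a match to the STAT-type letters TTCNNNGAA, beginning 97 bases before the start, which 7.02% of all 32851 RefSeq promoter stretches of this length also hold and no other proteasome gene with an entry did. The Psmb5 stretch holds a match to the antioxidant-type letters TGACNNNGC, beginning 47 bases before the start, found in 5 of the 35 proteasome genes with an entry (Psmb5, Psmb6, Psmc6, Psmd9 and Psmd12) and in 10.16% of all stretches. Psmb9 holds the CCAAT letters on the opposite strand (ATTGG, beginning 8 bases before the start), as did 12 of the 35 genes and 33.85% of all stretches. The interferon-type letters GAAANNGAAA were found in none of the 5 immunoproteasome genes, in 2 of the 35 (Psmd4 and Psmd9) and in 2.98% of all stretches. A match is a description of letters, and these 4 searches cover only this stretch. A proteasome gene was counted if any of its stretches matched, while the percentages are of single stretches, so counts and percentages are not in like units. Psma8, Psmb1, Psmb2, Psmb7, Psmc3, Psmd3 and Psmd7 had no entry.

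Of the 5 inducible genes, 4 lie in pairs on the chromosomes. Psmb9 and Psmb8 on chromosome 17 have 1 protein-coding gene between them, Tap1, a subunit of the peptide transporter, and Psme1 and Psme2 on chromosome 14 likewise have Emc9. Tap1 differed by -0.16 ± 0.13 (SE) between genotypes, with an adjusted p of 0.846 (limma), opposite in sign to both its neighbours. Psmb10 and Zfp90 both lie on chromosome 8, with 13 protein-coding genes between them. The lid gene Psmd7, with a difference of -0.11, is on that chromosome too, with 19 protein-coding genes between it and Zfp90.

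Inducible subunits were next set against the constitutive subunits they replace, within each animal. Psmb8 minus Psmb5 was 0.14 in the transgenic female, 0.24 and 0.44 in the transgenic males, -0.89, -1.11 and -0.21 in the wild-type males and 1.43 on the female array labelled wild type. The mean balance of the male groups differed 2.11-fold for Psmb8 over Psmb5, 2.33-fold for Psmb9 over Psmb6 and 1.77-fold for Psmb10 over Psmb7. The female array labelled wild type was the highest of the 7 for the last 2 pairs also, at 0.96 and 0.87. All 3 balances therefore overlapped between genotypes over the 7 animals. These are differences of ratios to a pool, so they say how the balance moved between animals and not how much of each subunit there was.

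The genes of the core itself differed little. Of the 12, 7 had positive and 5 negative fitted differences, from -0.14 (Psma4) to 0.38 (Psmb5), and 1 passed an unadjusted p under 0.05. Over the 6 alpha-ring genes the median difference was 0.036, and over the 6 beta-ring genes 0.057.

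Psmb5, the constitutive chymotrypsin-like subunit, read 0.22 in the transgenic female and 0.36 and 0.22 in the transgenic males. Wild-type males were at 0.083, 0.20 and -0.21, and the female array labelled wild type at -0.45, the lowest. All 3 transgenic animals ranked above all 4 wild-type ones, by a narrow margin over wild-type male 3. The difference was 0.38 ± 0.14 (SE), 1.31-fold, with an adjusted p of 0.718 (limma), and 0.26 ± 0.15 (SE) in males, with an adjusted p of 0.885.

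Psmb6, the constitutive caspase-like subunit, was at 0.076, 0.16 and 0.19 in the transgenic female and males, against 0.15, 0.12 and -0.12 in wild-type males and -0.21 on the female array labelled wild type. The groups overlapped, and the difference of 0.17 ± 0.10 (SE) had an adjusted p of 0.774 (limma). Psmb1, a non-catalytic beta subunit, differed by 0.14 ± 0.097 (SE), with an adjusted p of 0.821, and its pair of probes disagreed on single animals: wild-type male 3 read -0.066 on the first and 0.36 on the second. Its 7 ratios lay between -0.12 (wild-type male 4) and 0.15 (transgenic male 2), with the transgenic animals at 0.10, 0.11 and 0.15.

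Psmb7, the constitutive trypsin-like subunit, divided by sex. It read -0.26 and -0.25 on the female arrays labelled wild type and transgenic, against -0.023, -0.037 and 0.19 in wild-type and -0.058 and -0.0023 in transgenic males. Every male lay above both females, and the sex difference of -0.26 ± 0.11 (SE, female minus male) had an adjusted p of 0.504 (limma). The genotype difference was -0.051 ± 0.096 (SE), with an adjusted p of 0.97, and its sign changed under other settings.

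**Figure D2:**
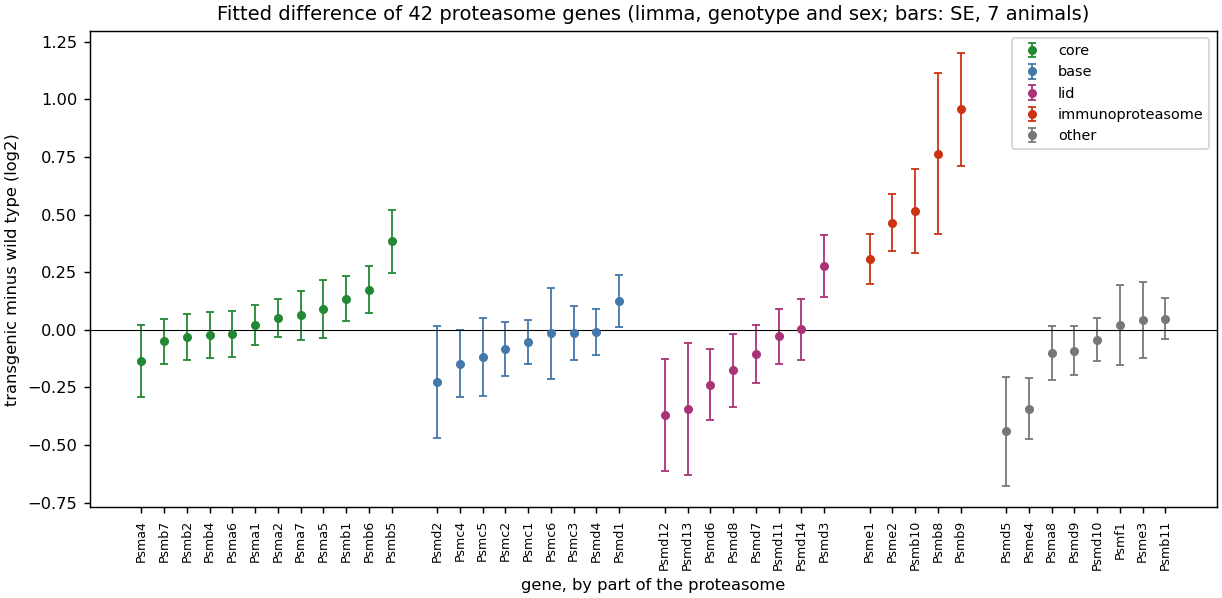
Fitted difference between transgenic and wild-type animals in log2 (vertical axis; points, with bars for the SE of the fit over 7 animals) for the 42 genes, sorted within each part of the proteasome (horizontal axis). The 5 immunoproteasome genes run from 0.31 to 0.96, and the genes of core, base and lid from -0.37 (Psmd12) to 0.38 (Psmb5).

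Genes of the base, the ring of unfolding ATPases with its scaffold and ubiquitin receptor, were nearly all on the negative side by small amounts. Of the 9, 8 had a negative fitted difference, against 11498 of 22218 features, and all 6 ATPase genes did (median -0.068). None passed an unadjusted p under 0.05. The largest sizes were those of Psmd2 and Psmc4, and the positive gene was Psmd1.

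Psmd1, the largest scaffold subunit, read 0.13, 0.045 and 0.038 in the transgenic female and males, against 0.024, 0.14 and -0.20 in wild-type males and -0.17 on the female array labelled wild type. The difference was 0.13 ± 0.11 (SE), with an adjusted p of 0.877 (limma). Psmc4, an ATPase, read -0.25, -0.34 and -0.0027 in the transgenic female and males, against -0.056, 0.33 and -0.099 in wild-type males and -0.29 on the female array labelled wild type. Its difference was -0.15 ± 0.15 (SE), with an adjusted p of 0.896.

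Psmd2, the other scaffold subunit, spread far more among animals than between genotypes. Wild-type male 3 (-0.58) and the transgenic female (-0.57) were lowest and wild-type male 4 (0.48) highest, with 0.21 in wild-type male 2, -0.10 on the female array labelled wild type and -0.21 and 0.031 in the transgenic males. The difference of -0.23 ± 0.25 (SE) had an adjusted p of 0.911 (limma). The median over the base became 0.0045 without transgenic male 1 and -0.16 without transgenic male 2.

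Lid genes had the most negative median of the structural parts, -0.14, with 6 of 8 negative and none past an unadjusted p under 0.05. The lid carries the deubiquitinase Psmd14, which stood at 0.0029 ± 0.13 (SE), and its partner Psmd7, at -0.11 ± 0.13 (SE). The median moved between -0.24 (without wild-type male 3) and -0.074 (without either female) as animals were left out.

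Psmd12, a scaffold subunit of the lid, read -0.75 in the transgenic female and -0.42 and 0.15 in the males of that genotype, against 0.035, -0.39 and 0.46 in wild-type males and 0.090 on the female array labelled wild type. Both groups ran from well below to above 0. The difference was -0.37 ± 0.24 (SE), 1.29-fold lower, with an adjusted p of 0.797 (limma).

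Psmd6 followed a like order, with -0.58, -0.23 and -0.014 in the transgenic female and males, 0.11, -0.29 and 0.25 in wild-type males and -0.12 on the female array labelled wild type. Its difference of -0.24 ± 0.15 (SE) had an adjusted p of 0.793 (limma). Psmd3 ran the other way, at 0.37, 0.13 and 0.15 in the transgenic female and males, against 0.082, 0.13 and -0.21 in wild-type males and -0.25 on the female array labelled wild type. Its difference of 0.28 ± 0.14 (SE), 1.21-fold, had an adjusted p of 0.742, and transgenic male 1 lay just below wild-type male 3.

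The lid genes shared their lowest and highest animals. Of its 8 genes, 5 were lowest in the transgenic female and 5 were highest in wild-type male 4, and the median ratio over the lid was -0.33 in the former and 0.24 in the latter. It was -0.28 in wild-type male 3, 0.094 in wild-type male 2, -0.051 on the female array labelled wild type and -0.16 and 0.083 in the transgenic males. The base had a similar order, from -0.25 in the transgenic female to 0.073 in transgenic male 2, and the core median stayed between -0.12 and 0.099 in every animal.

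**Figure D3:**
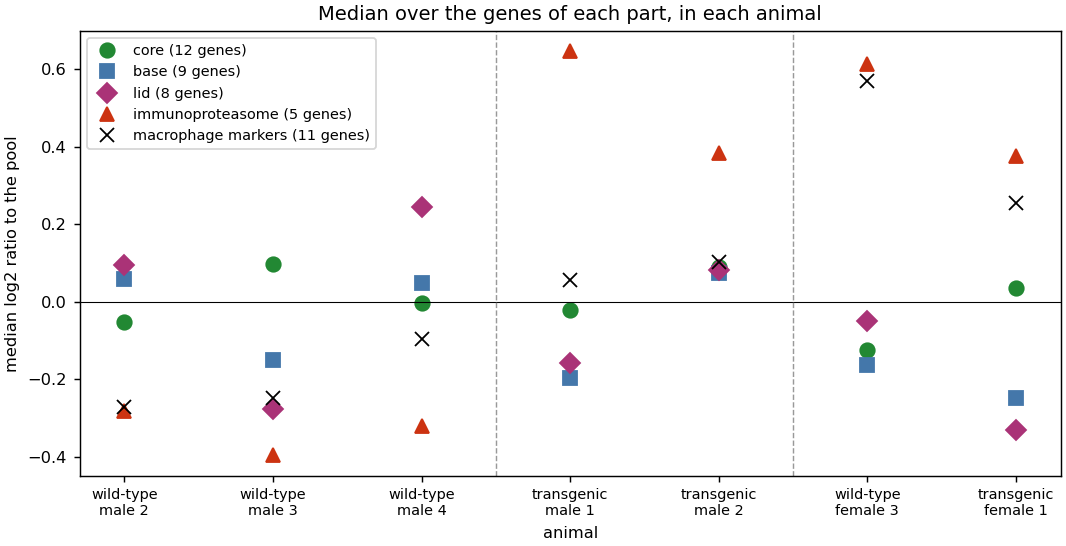
Median log2 ratio to the pool (vertical axis) over the genes of each part of the proteasome and over 11 macrophage markers, in each of the 7 animals (horizontal axis; dashed lines divide wild-type males, transgenic males and females). The immunoproteasome median was -0.40 to -0.28 in the wild-type males and 0.38 to 0.65 in the other 4 animals, while the lid median ran from -0.33 in the transgenic female to 0.24 in wild-type male 4.

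The spread over the 7 animals differed between the parts in the same way. The median SD of a gene's ratio was 0.12 in the core, 0.19 in the base, 0.23 in the lid and 0.48 in the immunoproteasome, against 0.17 over all features.

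Among the 8 other proteasome genes, which hold activators, an inhibitor, assembly chaperones of the base and tissue-restricted core subunits, the median difference was -0.067 and 3 were positive. Psme4, an activator that caps the core without ATP, read -0.37, -0.44 and -0.18 in the transgenic female and males, against -0.096, -0.18 and 0.24 in wild-type males and 0.077 on the female array labelled wild type. All 3 transgenic animals lay below all 4 wild-type animals, though transgenic male 2 and wild-type male 3 differed only in the third decimal. The difference was -0.34 ± 0.13 (SE), 1.27-fold lower, with an adjusted p of 0.72 (limma), and -0.30 ± 0.16 (SE) in males, with an adjusted p of 0.87.

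Psmd5, a chaperone of base assembly, had the most negative difference of the 42, -0.44 ± 0.24 (SE), with an adjusted p of 0.755 (limma). It read -0.70, -0.32 and -0.10 in the transgenic female and males, against 0.061, -0.44 and 0.51 in wild-type males and 0.20 on the female array labelled wild type, so the groups overlapped through wild-type male 3. The other chaperones of the base, Psmd9 and Psmd10, were at -0.091 and -0.044. Psme3, a nuclear activator, was at 0.043 and the inhibitor Psmf1 at 0.022. Psma8, known from testis, was at -0.10 and Psmb11, known from thymus, at 0.049.

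Of the 2 genes matched by spelling, Psmc3ip, a recombination factor, read 0.27, 0.083 and 0.34 in the transgenic female and males, against -0.046, 0.10 and -0.069 in wild-type males and -0.22 on the female array labelled wild type. Its difference of 0.30 ± 0.11 (SE) had an adjusted p of 0.718 (limma). Psme3ip1 differed by -0.14 ± 0.087 (SE), with all 3 transgenic animals below all 4 wild-type animals and an adjusted p of 0.792.

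The labels give each animal's sex, so females were compared with males in the same model. The 5 immunoproteasome genes all had positive differences (female minus male, median 0.58), while all 9 base and all 8 lid genes had negative ones (medians -0.17 and -0.17) and 10 of 12 core genes did. Of all 22218 features, 10601 were negative, with a median of 0.0096. There were only 2 females, and genes of a part shared their lowest animals, so the genes counted are not independent of each other. None of the 42 was called, against 0.351% of all features. At an unadjusted p under 0.05, 2 of 42 were higher in females (Psmb9 and Psmb10), against 3.65%, and 1 was lower (Psmb7), against 5.57%.

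Psmb10 averaged 0.60 in females (n = 2) and -0.034 ± 0.44 (SD, n = 5) in males, a fitted sex difference of 0.58 ± 0.20 (SE) with an adjusted p of 0.417 (limma). That of Psmb9 was 0.72 ± 0.27 (SE), with an adjusted p of 0.464. Transgenic male 1 lay above both females in both genes and transgenic male 2 below them, so the sexes overlapped. Psmb8 and Psmb9 were called for sex when the transgenic female was left out, which sets the female array labelled wild type against the wild-type males (the lower adjusted p was 0.0223, for Psmb8).

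The genotype difference was then set apart by sex, where it was small or negative between the females, though the test of the interaction called no proteasome gene. Between the 2 females, Psmb8 was lower in the transgenic by 0.61, while Psmb9, Psmb10 and Psme1 differed by 0.024, -0.035 and -0.0037 and Psme2 by 0.17, where the male differences ran from 0.44 to 1.35. The interaction of genotype and sex was negative for all 5, with a median of -0.78, close to that of the macrophage markers described below. It was -1.95 ± 0.30 (SE) for Psmb8, with an adjusted p of 0.167 (limma), and -1.32 ± 0.25 (SE) for Psmb9, with an adjusted p of 0.231. Of all features, 0.072% were called, and of the 42 none.

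At an unadjusted p under 0.05, 3 of 42 had a negative interaction (Psmb8, Psmb9 and Psmb10), against 4.49% of all features, and 0 a positive one, against 3.93%. Psmb8 was called without wild-type male 4, with an adjusted p of 0.0252. With 1 female of each genotype the spread behind this test came from the males, and a difference between the females cannot be told apart from a difference between 2 individuals or from the array whose Zfp90 ratio went against its label. Outside the immunoproteasome, the largest female differences were those of Psmd5 (-0.89), Psmd13 (-0.88), Psmd12 (-0.84), Psmb5 (0.68) and Psmd3 (0.62), each of the same sign in males and smaller there.

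**Figure D4:**
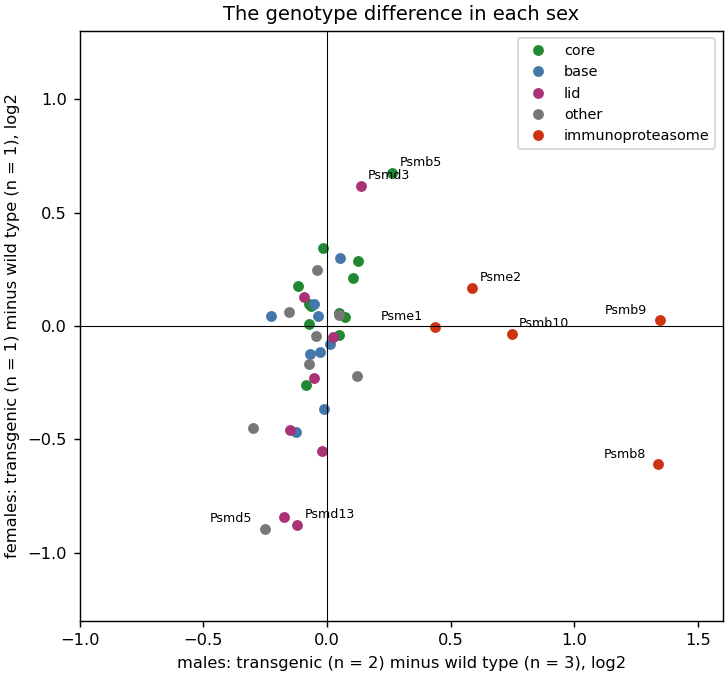
Difference between transgenic and wild-type males (horizontal axis, 2 against 3 animals) and between the transgenic and wild-type female (vertical axis, 1 against 1), in log2, each point 1 of the 42 genes, coloured by part of the proteasome. The 5 immunoproteasome genes lie to the right, from 0.44 to 1.35 in males, at -0.61 to 0.17 in females, and the other genes lie between -0.30 and 0.26 in males.

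Genes that build, feed or use the proteasome were taken from fixed lists, and none passed the threshold over all 7 arrays. Of 4 core assembly chaperones 1 was positive: Pomp, which matures the catalytic rings, at 0.45 ± 0.15 (SE) with an adjusted p of 0.71 (limma). Pomp read 0.55, 0.42 and 0.31 in the transgenic female and males, against 0.10, 0.28 and -0.16 in wild-type males and -0.30 on the female array labelled wild type, so all 3 transgenic animals were above all 4 wild-type animals. Psmg3 was at -0.25 ± 0.13 (SE), with an adjusted p of 0.755. Of 3 genes for a subunit outside the symbol rule and for deubiquitinases bound to the proteasome, 2 were positive, led by the small lid subunit Sem1 (0.34 ± 0.21, SE) and the deubiquitinase Usp14 (0.14 ± 0.088, SE), with adjusted p of 0.788 and 0.79.

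Upstream of the proteasome the differences were small. Of 8 genes for ubiquitin activation and conjugation 2 were positive, and those with the smallest p were Ube2l6 (-0.31 ± 0.17, SE), the conjugating enzyme of the interferon-induced modifier Isg15, and Ube2d2a (-0.19 ± 0.11, SE), with adjusted p of 0.755 and 0.764 (limma). Of 10 genes for shuttle factors and p97 partners 4 were positive, with Ubqln4 at -0.20 ± 0.091 (SE) and Faf1 at -0.21 ± 0.14 (SE), adjusted p 0.728 and 0.803.

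Of 12 regulators of proteasome genes 5 were positive and 1 passed an unadjusted p under 0.05. That was Zfand5, a stress-induced stimulator of the proteasome, at -0.40, -0.56 and -0.16 in the transgenic female and males, against 0.20, -0.33 and 0.29 in wild-type males and 0.21 on the female array labelled wild type. Its difference was -0.47 ± 0.18 (SE), with an adjusted p of 0.718 (limma), and the groups overlapped through wild-type male 3. Ngly1, which processes the proteasome-inducing factor Nfe2l1, was at -0.24 ± 0.11 (SE), with an adjusted p of 0.725. Nfe2l2, a transcription factor of the oxidative stress response, was at 0.25 ± 0.19 (SE) over all arrays, with an adjusted p of 0.838. In males, where both transgenic animals lay above all 3 wild-type ones, it was at 0.52 ± 0.13 (SE), with an adjusted p of 0.418 (limma).

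Genes of MHC class I presentation, which use the peptides that the proteasome makes, had differences of mixed sign. Of 12 measured, 5 were positive, with a median of -0.026, and 6 were in males, with a median of 0.0092. B2m, the light chain of class I, read 0.56, 0.41 and 0.45 in the transgenic female and males, against -0.27, 0.12 and -0.37 in wild-type males and 0.22 on the female array labelled wild type. All 3 transgenic animals ranked above all 4 wild-type ones, and the difference of 0.53 ± 0.14 (SE), 1.44-fold, had an adjusted p of 0.653 (limma). Tap2, a subunit of the peptide transporter, was at 0.35 ± 0.27 (SE), with an adjusted p of 0.845. In males it was at 0.73 ± 0.20 (SE), with an adjusted p of 0.474 (limma), and both transgenic males lay above all 3 wild-type ones, as in 11.2% of all features. It read 0.54 on the female array labelled wild type and -0.026 in the transgenic female.

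Markers of macrophages, which carry the inducible subunits, were set beside the immunoproteasome. Of 11 measured, 9 had a positive genotype difference (median 0.18, and 0.50 in males), against 48.2% of all features. At an unadjusted p under 0.05 (limma), 2 were higher over all arrays, against 3.82% of all features. In males 5 were, against 3.92%, and none of the 11 was called. Between the females their median difference was -0.27, against -0.0037 for the immunoproteasome genes. The female minus male difference of the 11 had a median of 0.42, and 10 were positive. Of these, 6 were at an unadjusted p under 0.05 (limma), against 3.65% of all features. The interaction of genotype and sex was negative for 9 of the 11, with a median of -0.78, so neither pattern was particular to the immunoproteasome. Their median ratio was 0.055 and 0.10 in the transgenic males, 0.26 in the transgenic female, -0.27, -0.25 and -0.097 in the wild-type males and 0.57 on the female array labelled wild type. The same 3 wild-type males were therefore lowest in both lists, while the macrophage median of the transgenic males lay nearer to 0 than that of their immunoproteasome genes (0.65 and 0.38).

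The largest differences of the 11 were those of Marco and C1qa. Marco, a scavenger receptor of macrophages, read 1.15, -0.019 and 0.10 in the transgenic female and males, against -1.67, -1.84 and -1.31 in wild-type males and 1.29 on the female array labelled wild type. C1qa, a complement subunit made by macrophages, differed by 1.26 in males and by 0.90 ± 0.27 (SE) over all arrays, with an adjusted p of 0.677 (limma). C1qb, the partner subunit of C1qa, did not share the direction, at -0.049 over all arrays and -0.11 in males. Cd68, a lysosomal protein of macrophages, was at 0.045 over all arrays and -0.057 in males, and Adgre1, a surface marker of Kupffer cells, at -0.045 and 0.50. Clec4f, Timd4 and Vsig4 differed by 0.81, 0.51 and 0.62 in males, with adjusted p of 0.348, 0.36 and 0.646 (limma). In these 3 genes both transgenic males lay above all 3 wild-type males, as in 11.2% of all features. Lyz2, Cybb and Cd14 differed by 0.24, 0.32 and 0.19 in males. The part of macrophages in the immunoproteasome difference was not tested, and in whole liver fewer cells of a type and less RNA per cell cannot be told apart. Lists for the other cell types had medians from -0.068 (6 stellate and fibroblast genes) to 0.037 (8 dendritic cell genes), with -0.042 over 8 hepatocyte, 0.036 over 10 T and NK cell, -0.010 over 4 B and plasma cell, 0.020 over 7 neutrophil and 0.0087 over 7 endothelial genes. In males the medians were 0.13 for dendritic cells, 0.099 for neutrophils, 0.055 for stellate cells and fibroblasts, 0.035 for T and NK cells, -0.021 for endothelium, -0.022 for hepatocytes and -0.050 for B and plasma cells.

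Single genes of these lists had large male differences like those of the immunoproteasome, with both transgenic males above all 3 wild-type males. That order held for 11.2% of all features. Il2rb, an interleukin receptor chain of T and NK cells, differed by 1.23 ± 0.14 (SE) in males, with an adjusted p of 0.0828 (limma). Over all arrays its difference was 0.70 ± 0.32 (SE), with an adjusted p of 0.728 (limma). Of the 10 T and NK cell genes, 5 were positive and 5 negative in males. For Ngp, a neutrophil granule protein, the male difference was 0.96 ± 0.16 (SE), with an adjusted p of 0.212. Over all arrays none of the 7 neutrophil genes, Ngp included, had a difference above 0.19. H2-Aa and H2-Ab1, the MHC class II chains of antigen-presenting cells, had adjusted p values of 0.139 and 0.369 in males, and over all arrays differed by 0.68 ± 0.21 (SE) and 0.37 ± 0.17 (SE). Of the 8 dendritic cell genes, which hold this pair, 5 were positive and 3 negative in males. At an unadjusted p under 0.05 in males (limma), 2 of the 8 were higher, against 3.92% of all features, and 1 was lower, against 3.04%. The female array labelled wild type read 0.999 for Il2rb, 0.82 for H2-Aa, 0.58 for H2-Ab1 and 0.96 for Ngp, above every wild-type male. None of these genes was called, and their part in the immunoproteasome difference was not tested. Because ratios to a liver pool give no level, neither the hepatocyte identity of the tissue nor the absence of a cell type can be read from them.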

How the data were processed

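Each of the 7 liver samples has 1 value per probe: a log10 ratio deposited by the authors, of the animal's Cy5-labelled RNA to the Cy3-labelled wild-type pool, with dye swaps used, per the labels. Whether a value combines swapped hybridisations, and the background correction, normalization, centring and signal over background, are not given in the sources used here. The values end at -2 and 2, which is why they were read as log10. The Y-linked gene Kdm5d (-3.22 and -2.54 after conversion in females, 0.14 to 0.66 in males) gave animal over pool as the direction on every array. That direction was kept although 3 pairs of arrays correlated below -0.3 (-0.495 between wild-type male 4 and the transgenic female, and -0.362 and -0.312 between the female array labelled wild type and males 3 and 2 of that genotype). Array medians lay between -0.014 and 0.031.

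Ratios were multiplied by 3.32 to give log2, and probes with the same symbol in GEO's platform annotation were averaged (17824 probes had 1 symbol, 50 several and 5700 none; those without 1 symbol were kept separately and unnamed). Differences were fitted with limma 3.58.1 in R 4.3.3 (lmFit, eBayes) over 22218 features with genotype and sex, in males with genotype, and with their interaction. The fit was checked on simulated data. Named are the immunoproteasome genes, the 3 genes with the smallest p in each other part and in the male, sex and interaction comparisons, and the 2 with the smallest p in each pathway list; others were named after their values were seen. The members, gene lists, tests and alternatives were chosen with earlier results of these data known.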

Additional observations from a re-analysis of the deposited data

Results flagged for a closer look

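Values in the 4 wild-type animals were examined for an animal far from the rest, taking the gap to its nearest neighbour over the whole range, against Dixon's critical value. Of 22 values examined (the named proteasome genes and the medians of the parts), 3 exceeded it. About 1 in 20 unselected, independent values would be marked by chance alone. The count of 3 cannot be set against that rate. Most of the genes were named by their p in these data, and the values come from the same animals. In each of the 3 the female array labelled wild type was the highest. Psmb10 read 0.61 there against -0.28 in the nearest male (0.887 of the range), Psme1 read 0.26 against -0.13 (0.839 of the range), and the median of the immunoproteasome genes, which is Psmb10 in both animals, was 0.61 against -0.28 (0.887 of the range).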

How the results depend on the processing

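The settings tried were array centring, quantile normalization, single probes, named genes alone, a robust variance model, no sex term, means for medians, and leaving out each animal. Over all 7 arrays the count of called proteasome genes stayed at 0 under every setting, with a smallest adjusted p between 0.0732 and 1.0, while the count at an unadjusted p under 0.05 ran from 2 to 14 (14 without wild-type male 3). Without that male the smallest adjusted p was 0.183 (limma), for the base gene Psmd2, which did not pass an unadjusted p under 0.05 over all 7 arrays. The called count ran from 0 to 2 in males (2 without wild-type male 4), from 0 to 2 for sex (2 without the transgenic female) and from 0 to 1 for the interaction (1 without wild-type male 4). Their smallest adjusted p ran from 0.0143 to 0.494, 0.0223 to 0.75 and 0.0252 to 0.522. Psmb7 reversed, from -0.051 to 0.0019 under quantile normalization and 0.0022 without wild-type male 4, the cause of which was not tested, and was -0.075 without either female. The core median, 0.036, fell to 0.0080 without wild-type male 2. No paired analysis was possible because the genotype groups share fewer than 2 replicate numbers. The sexes share 2, which nothing shows to be pairs, and a replicate block, chosen after seeing the data, called 0 proteasome genes for sex (smallest adjusted p 0.568). The 7 arrays and unknown signal over background limit what could be called.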
